A study of Mus musculus with 108 samples.

Results

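Single acinar cells from the mouse pancreas were divided by their level of Ptf1a into 4 rank groups of 27 cells, and the 27 highest were compared with the 27 lowest, 54 cells in all. All cells of the series were ranked by their Ptf1a TPM (reads per transcript length, as a share of the cell), with ties going to the lower cell number. The groups were therefore selected on a measured value, and the Ptf1a levels given for them describe that selection. All cells came from untreated male C57Bl/6 mice of 12 weeks, whose pancreas was digested with collagenase and Accutase. Single cells were picked and their cDNA was amplified by a modified SMART-seq2 procedure. The labels place every cell in 1 group and name no animal, day or plate. The cells are therefore not replicates of a condition, differences carry no p-value and no standard error, and SDs and ranges describe the spread between cells.

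Ptf1a is a basic helix-loop-helix (bHLH) transcription factor that specifies the pancreas in the embryo and maintains acinar identity in the adult. It acts in the PTF1 complex with an E protein such as Tcf12, Tcf3 or Tcf4 and with Rbpjl, the acinar form of the Notch effector Rbpj. The complex binds an E-box beside a TC-box, a site of the RBPJ type, in the promoters of digestive enzyme genes and of Rbpjl, and acts on Ptf1a itself through a distant enhancer that is not shown here. Bhlha15 (Mist1), another acinar bHLH factor, and Xbp1, a factor of the unfolded protein response, are known for the secretory machinery rather than for the enzymes themselves.

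Promoters of both kinds are shown so that the letters such factors are known for can be seen beside the values below. They are RefSeq sequences on GRCm38.p6, 300 bases long, from 250 before to 50 after the start of the gene, read 5′ to 3′ on the strand of the gene. Capitals in the first 4 mark E-boxes (CANNTG) and the RBPJ core (TGGGAA or its reverse complement TTCCCA). They are Ptf1a (chr2:19445413-19445712, plus strand), Rbpjl (chr2:164402944-164403243, plus strand), Cpa1 for carboxypeptidase A1 (chr6:30638968-30639267, plus strand) and Cela1 for elastase 1 (chr15:100687871-100688170, minus strand).
Ptf1a: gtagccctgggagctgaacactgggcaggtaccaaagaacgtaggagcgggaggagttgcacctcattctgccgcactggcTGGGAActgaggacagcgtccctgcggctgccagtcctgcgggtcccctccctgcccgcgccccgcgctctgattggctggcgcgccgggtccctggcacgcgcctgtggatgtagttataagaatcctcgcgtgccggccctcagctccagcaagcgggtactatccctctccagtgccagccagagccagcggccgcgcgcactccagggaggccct
Rbpjl: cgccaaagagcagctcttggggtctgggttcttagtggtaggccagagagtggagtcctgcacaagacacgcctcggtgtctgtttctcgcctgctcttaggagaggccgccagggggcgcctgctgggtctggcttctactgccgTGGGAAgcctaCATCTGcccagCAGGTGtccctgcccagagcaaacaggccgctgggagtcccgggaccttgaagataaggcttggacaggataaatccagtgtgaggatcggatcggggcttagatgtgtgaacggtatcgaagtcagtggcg
Cpa1: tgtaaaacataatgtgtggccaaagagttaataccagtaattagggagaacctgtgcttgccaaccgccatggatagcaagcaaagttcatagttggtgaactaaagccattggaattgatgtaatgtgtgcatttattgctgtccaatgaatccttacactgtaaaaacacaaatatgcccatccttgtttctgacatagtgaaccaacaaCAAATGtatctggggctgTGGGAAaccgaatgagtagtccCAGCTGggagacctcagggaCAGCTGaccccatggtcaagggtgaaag
Cela1: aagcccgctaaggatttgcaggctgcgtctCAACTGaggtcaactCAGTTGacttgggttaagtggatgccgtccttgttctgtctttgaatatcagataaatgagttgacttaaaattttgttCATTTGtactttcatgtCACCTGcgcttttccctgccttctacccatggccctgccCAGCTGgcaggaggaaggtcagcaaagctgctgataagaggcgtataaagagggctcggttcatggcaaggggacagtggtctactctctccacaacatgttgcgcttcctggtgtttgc
The Rbpjl window held 2 E-boxes and 1 core, and the Cpa1 window 3 E-boxes and 1 core, with an E-box within 20 bases of the core in both. The Cela1 window held 5 E-boxes and no core, and the Ptf1a window 1 core and no E-box. Among 45 promoters of 43 of the 54 digestive enzyme and granule genes, 88.89% held an E-box, 42.22% a core and 15.56% (7 promoters) both within 20 bases. Over all 32851 promoters the shares were 72.31%, 25.56% and 5.211%. A match is a description of letters and no evidence of binding.

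The next windows belong to Creld2 (chr15:88819396-88819695, plus strand) and Hspa5 (chr2:34771840-34772139, plus strand), an ER stress-inducible secreted protein and the ER chaperone BiP. Capitals mark the ER stress response element, searched on both strands as the box pair CCAAT and CCACG, 9 bases apart. The motif and the 2 genes were chosen with their values already known.
Creld2: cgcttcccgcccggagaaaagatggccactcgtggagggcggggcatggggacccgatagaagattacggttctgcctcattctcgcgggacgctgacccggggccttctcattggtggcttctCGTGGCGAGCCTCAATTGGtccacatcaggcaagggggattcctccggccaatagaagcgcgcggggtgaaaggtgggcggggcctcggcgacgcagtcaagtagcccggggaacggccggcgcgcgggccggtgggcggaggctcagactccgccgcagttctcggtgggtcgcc
Hspa5: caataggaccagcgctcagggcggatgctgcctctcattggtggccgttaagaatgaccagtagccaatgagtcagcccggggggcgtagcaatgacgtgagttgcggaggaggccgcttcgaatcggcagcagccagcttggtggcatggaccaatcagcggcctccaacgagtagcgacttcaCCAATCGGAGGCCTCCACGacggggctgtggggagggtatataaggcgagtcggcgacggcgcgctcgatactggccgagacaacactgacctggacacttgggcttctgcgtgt
The element was present in 7 of 24 promoters (29.17%) of 20 of the 27 listed ER chaperones and disulfide isomerases, those of Calr, Canx, Creld2, Dnajc3, Hsp90b1, Hspa5 and Pdia6. It was present in 0.1187% of all promoters (39) and in none of the 45 enzyme promoters. The window of Pdia4, the chaperone that differed most between the groups, held no match of any of the 3 motifs.

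Ptf1a (GRCm38 chromosome 2, 19445663 to 19447501) was detected in all cells, where detected means at 1 TPM or more. It ran from 1.71 to 43.2 TPM with a median of 10.755 TPM. The Ptf1a-high cells held 15.35 to 43.2 TPM (median 20.12, mean 22.19 ± 6.75, SD, n = 27) and the Ptf1a-low cells 1.71 to 7.55 TPM (median 4.72, mean 4.94 ± 1.83, SD, n = 27). The ranking was continuous at both bounds. The last cell inside the high group had 15.35 TPM and the next cell 14.91 TPM, while the first cell inside the low group had 7.55 TPM and its neighbour above 7.64 TPM. The extremes were cell 85 at 43.2 TPM and, at the other end, a short-total cell (defined below) at 1.71 TPM.

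**Figure D1:**
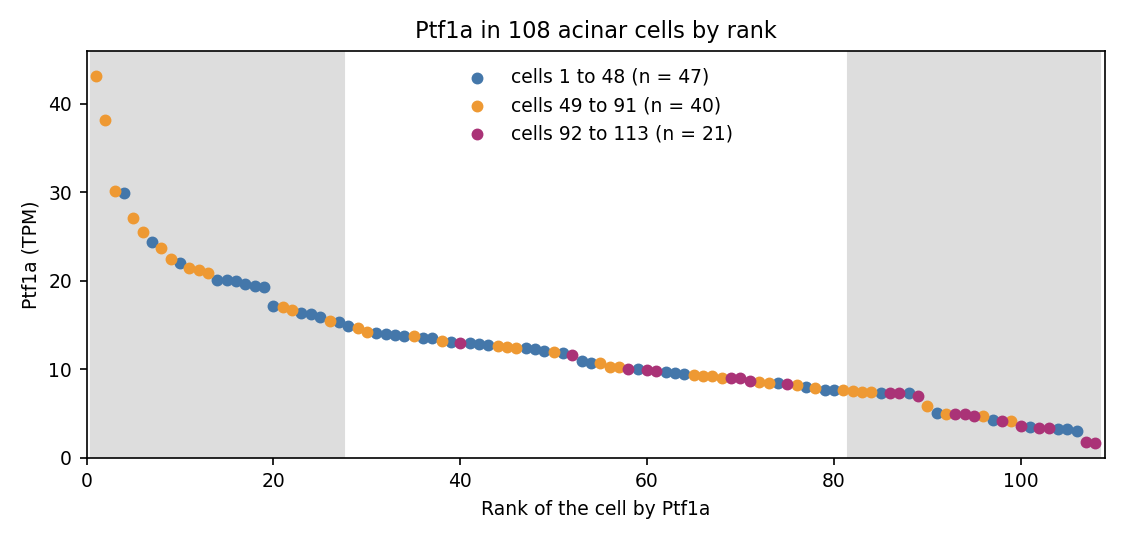
Ptf1a in TPM (vertical axis) against the rank of each cell (horizontal axis), 1 point a cell, coloured by set of cell numbers. Grey bands mark the 27 highest and 27 lowest cells, and the cells numbered 92 and above reach at most 13 TPM with none in the high band.

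The groups differed in which cells they held. An earlier analysis of these data divided the cells by number into 1 to 48, 49 to 91 and 92 upwards, and in the 21 cells of the last set the deposited values summed to less than the usual 1000000, from 788380 TPM upwards. These are called short-total cells here. The Ptf1a-high group held 14, 13 and 0 cells of the 3 sets, and the Ptf1a-low group 8, 7 and 12. Short-total cells thus made up 44.4% of the low group (exact 95% binomial interval 25.5% to 64.7%), while the high group had 0 of 27, with an exact upper bound of 12.8% (11.1% by the floor of 3 cells). These bounds cover counting error only. Median Ptf1a was 7.31 TPM in the short-total cells, 12.8 TPM in cells 1 to 48 and 12.2 TPM in cells 49 to 91. The other 87 cells are called full-total cells. The cells ranked 28 to 54 and 55 to 81 held 2 and 7 short-total cells. Ptf1a level and set are therefore partly confounded, also over the middle ranks. Results below are also given for a second ranking made within the sets, with the highest and lowest 11, 10 and 5 cells of each, 26 cells a group (called within sets). Differences given for cells 1 to 48 or 49 to 91 instead use the main groups' cells in that set, 14 against 8 and 13 against 7. They are not parts of the second ranking.

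Ptf1a-high cells also had more genes detected. The median was 4368 genes (3980 to 5032) in the high group and 3950 (2624 to 4830) in the low group. Within the low group it was 4224 in the 15 full-total cells and 3910.5 in the 12 short-total cells. The ranges of the groups overlapped, and within sets the medians were 4344 and 3944.5. TPM keep no read depth, so the part of depth in the differences below was not tested.

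**Figure D2:**
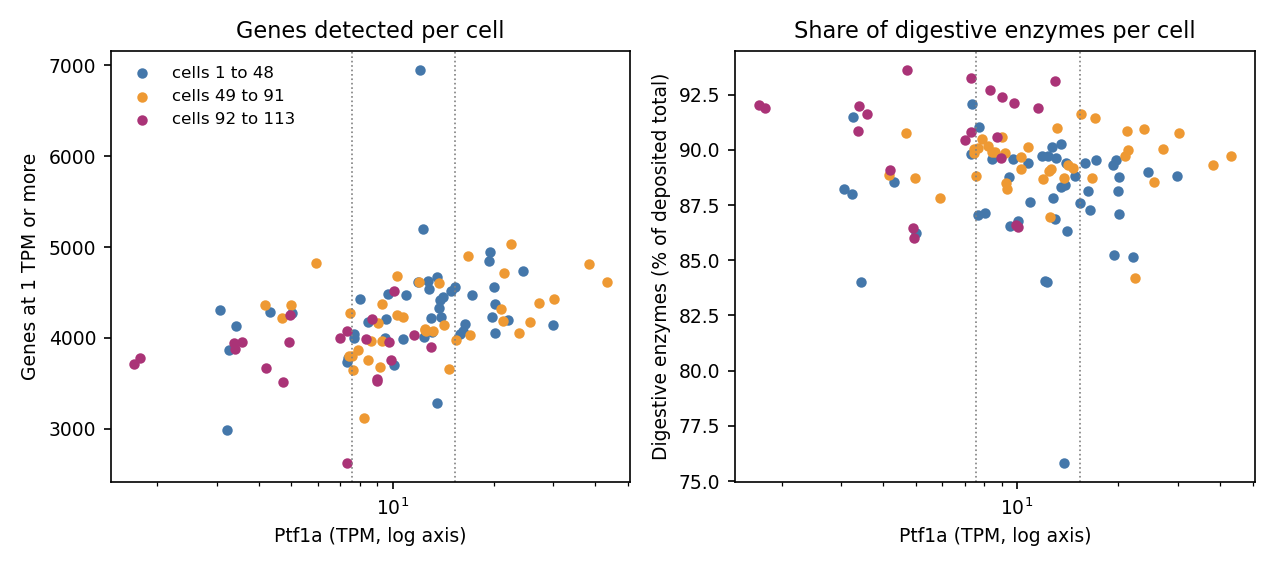
Genes detected at 1 TPM or more (left) and the share of the deposited total taken by digestive enzymes and granule proteins in percent (right) against Ptf1a in TPM on a log axis, 1 point a cell, coloured by set. Dotted lines mark the bounds of the groups, whose median shares were 89.3% (high) and 89.9% (low).

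The label of acinar cells held in both groups. The 9 acinar markers other than Ptf1a, which chose the groups, were all detected in each group. Summed ductal markers ran from 15.65 to 189 TPM in the high cells and from 12.3 to 376 TPM in the low cells (medians 30.2 and 28.9 TPM), with Tspan8 at 0 in both. Of the other marker lists, 1 of 14 endocrine, 1 of 11 stellate, 1 of 11 endothelial and 1 of 13 macrophage markers were detected in the high group, and 3, 5, 0 and 1 in the low group. Gcg, Sst, Pdgfra, Pecam1, Adgre1 and Cd3e were at 0 in both. The summed stellate markers reached 25.6 TPM in the low group, in cell 96, against 2.57 TPM in the high group. Cell 31, which an earlier analysis singled out for proliferation genes, also ranked in the low group (5.02 TPM Ptf1a).

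Across the transcriptome the Ptf1a-high cells were mostly the higher ones, by small amounts. Differences are given as the mean log2(TPM + 1) of the high cells minus that of the low cells, which understates the change of low genes, over 7226 genes detected in at least 11 cells with Ptf1a left out. The median difference of all these genes was 0.17 and 80.8% lay above 0. These values were not rescaled to a common total. The mean deposited total was 999998 TPM in the high cells and 971528 TPM in the low cells, which adds a little to every difference. With median-of-ratios scaling, which sets cells on the genes with a nonzero value in all of them, the median was 0.05 and 59.7% lay above 0. Within sets the median was 0.12, and without the short-total cells 0.11. A gene list is therefore read against these medians rather than against 0. For the 3729 genes detected in at least 54 cells, a nearer background for lists of well-detected genes, the median was higher, at 0.23. It was 0.15 within sets, 0.05 with median-of-ratios scaling and 0.14 without the short-total cells.

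Few genes differed by as much as 1 on the log2 scale. In the high cells 20 genes (0.277% of those tested) were higher by at least 1, and 3 (0.0415%) were lower. At a difference of 0.5, a smaller size used for the lists after their values were seen, 403 genes (5.58%) were higher and 20 (0.277%) lower. Within sets 10 (0.138%) and 2 (0.0277%) passed 1, and 197 (2.73%) and 31 (0.429%) passed 0.5. Of the 3729 genes detected in at least 54 cells, 356 were higher by at least 0.5, and 167 within sets. No gene separated the groups fully. The nearest was Arcn1, a subunit of the COPI coat of Golgi vesicles, for which the high cell had the higher value in 90.5% of all pairs of a high and a low cell (ties counted as 0.5).

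The partners of Ptf1a differed little. Rbpjl (chromosome 2, 164403081 to 164415448) had 18.4 to 63.7 TPM in the high cells (median 35.1) and 8.37 to 72.98 TPM in the low cells (median 29.1), a difference of 0.27. The groups overlapped over nearly their whole range. The difference was 0.37 within sets, 0.02 with median-of-ratios scaling, 0.71 in cells 1 to 48 and -0.17 in cells 49 to 91. Its direction was thus the other way in cells 49 to 91. Among the E proteins, Tcf4 differed by 0.22 and Tcf12 by 0.05, with medians at or below 1.02 TPM in either group. Tcf3 and Rbpj did not reach 1 TPM in any cell of either group and were too rarely detected to be compared. None of the 3 partner genes compared passed 0.5.

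Bhlha15 (chromosome 5, 144190286 to 144194441) stood higher in the Ptf1a-high cells. It had 3.8 to 26.4 TPM (median 15.4) there and 3.05 to 20.1 TPM (median 9.19) in the low cells, with medians of 12.8 and 11.5 TPM in the cells ranked 28 to 54 and 55 to 81. The medians thus followed the order of the 4 rank groups, while single cells overlapped. Short-total cells also became more frequent along that order. The difference was 0.68 (0.56 within sets, 0.44 with median-of-ratios scaling), and the high cell was higher in 80.6% of pairs. Its Spearman correlation with Ptf1a was 0.40 over all cells and 0.41 over the 87 full-total cells, but -0.22 in the short-total cells alone. All genes of a cell share its library and depth, so these correlations are descriptions.

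Of 20 other acinar and pancreas transcription factors compared, 18 lay above 0, with a median of 0.19 (0.16 within sets), close to the median of all genes. Only Bhlha15 and Myc, a growth regulator, were higher by at least 0.5. Myc had medians of 3.55 and 1.81 TPM and a difference of 0.72 (0.58 within sets). Gata4, a zinc finger factor of pancreas development, differed by 0.46 and Cux1, a homeobox factor, by 0.43. Nr0b2, a nuclear receptor that represses others, differed by 0.43 but by 0.11 within sets. Xbp1 differed by 0.27, with medians of 58.8 and 53.6 TPM, and by 0.02 with median-of-ratios scaling. Nr5a2 and Gata6, both needed for acinar identity, differed by 0.11 and 0.20, and Sox9, a ductal and progenitor factor, by 0.07. Hnf4a, a nuclear receptor, differed by 0.11. Other factors above 0 were Foxa3 (0.29), Klf15 (0.27), Creb3l1 (0.25), Foxa2 (0.19), Etv5 (0.16) and Zbtb20 (0.14). Mecom (-0.10) and Nr1h4 (-0.13) lay below 0.

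**Figure D3:**
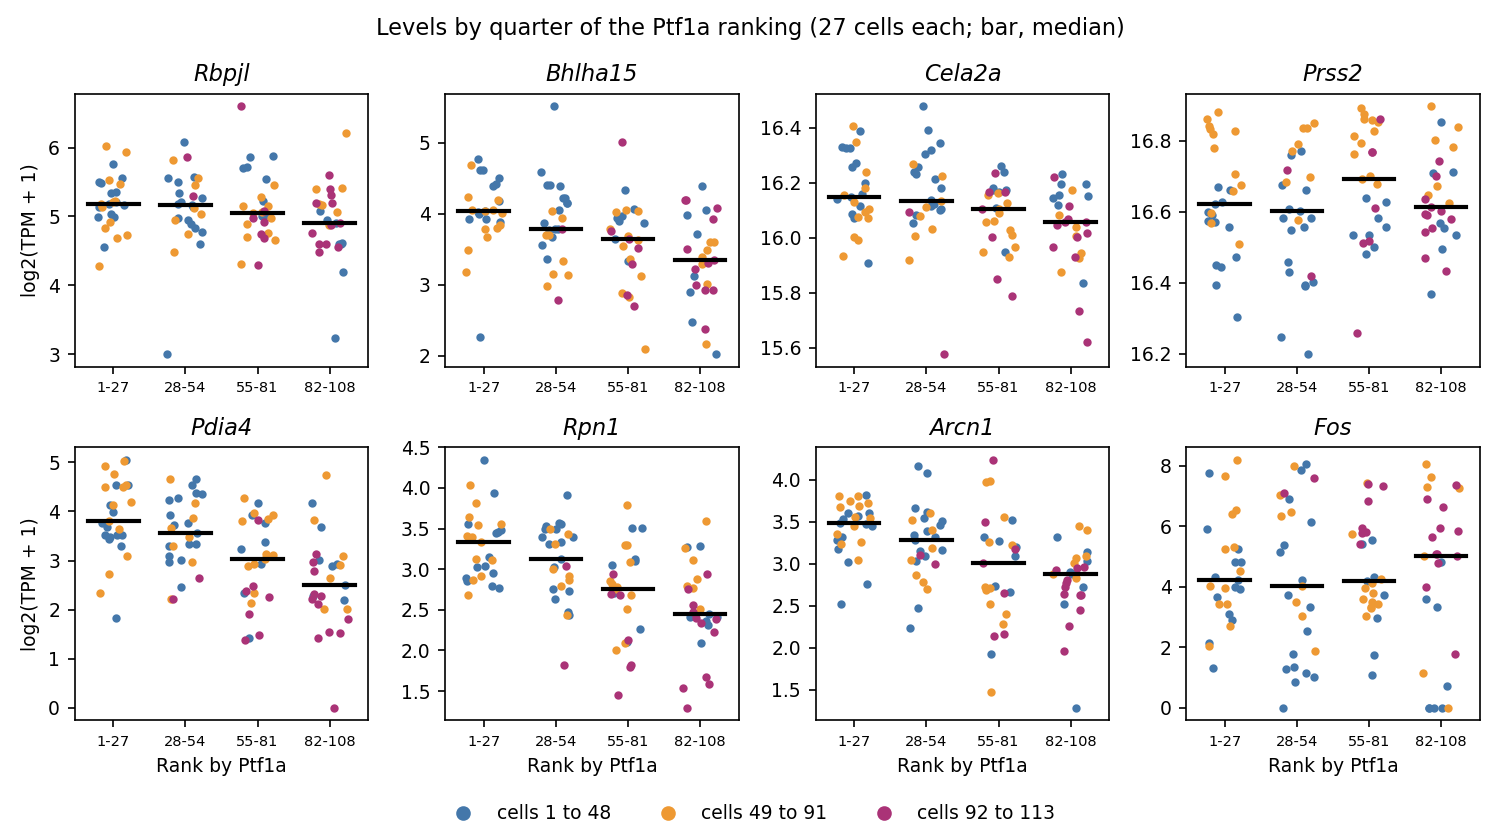
Level as log2(TPM + 1) (vertical axis) of 8 genes in the cells ranked 1 to 27, 28 to 54, 55 to 81 and 82 and lower by Ptf1a (horizontal axis), 1 point a cell, coloured by set of cell numbers, with bars at the medians. Bhlha15, Pdia4, Rpn1 and Arcn1 step down over the 4 rank groups, Rbpjl and Cela2a change little, Prss2 and Fos show no such order. The rank groups hold 0, 2, 7 and 12 short-total cells.

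The digestive enzymes, the genes PTF1 is best known for, were at nearly equal TPM in both groups. TPM are shares of a cell, so a list that takes most of the total has little room to differ as a whole. Whether the amount of enzyme transcripts per cell differed was not tested. Together with the granule proteins they took 84.2% to 91.6% of the deposited total in the high cells (median 89.3%) and 84.04% to 93.6% in the low cells (median 89.9%). In the 15 full-total low cells the median was 88.8%, below that of the high cells, and in the 12 short-total ones 91.3%, so the direction turned without the latter. Of 49 compared, 37 lay above 0 and the median difference was 0.08, below that of all genes. Both medians include the part added by the lower deposited totals of the low group. Only Cela3a and Pebp1 were higher by at least 0.5 and none was lower by as much. The median was 0.01 within sets and -0.18 with median-of-ratios scaling, under which 6 of 49 lay above 0. The sign thus changed with the scaling, which also moved the ribosomal and respiratory lists below 0, and the enzymes lay below the median of all genes under both scalings.

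Among the proteases, Prss2 (anionic trypsinogen) had 80926 to 120706 TPM in the high cells (median 100863) and 84542 to 122132 TPM in the low cells (median 100212). Its difference was -0.00. The 11 trypsinogens, which share reads and are uncertain one by one, had a median of -0.00, with Try4 at -0.05, Try5 at 0.02 and 2210010C04Rik at -0.06. Prss3 was the lowest at -0.48, with medians of 135 and 171 TPM and single low cells up to 5890 TPM. Ctrb1 (chymotrypsinogen B) had medians of 97618 and 98985 TPM (difference -0.04). Cela2a, elastase 2A, had medians of 72636 and 68170 TPM, a difference of 0.13, and was higher in the high cell in 73.7% of pairs (60.7% within sets). Ctrl, a chymotrypsin-like protease, differed by 0.11 and Cela1 by 0.04, with medians of 45178 and 44096 TPM. Cela3b, elastase 3B, had medians of 26976 and 28523 TPM and ran the other way, with a Spearman correlation of -0.20 over all cells and -0.41 over the full-total cells. The carboxypeptidases Cpa1 (medians 21457 and 20514 TPM) and Cpb1 differed by 0.04 and 0.03.

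The other enzyme classes were as close. Cel, carboxyl ester lipase, had the largest difference of the lipases, 0.23 (medians 22167 and 19893 TPM), 0.13 within sets and -0.02 with median-of-ratios scaling. Pnlip (pancreatic lipase), its cofactor Clps and Pnliprp1, a lipase-related protein, differed by 0.02, -0.05 and 0.05. Amy2a1, a pancreatic amylase, had medians of 77101 and 76099 TPM, and Amy2a5 differed by -0.13. Amy2a2, Amy2a3 and Amy2a4 carried identical values (difference 0.12), so amylase copies could not be separated. Rnase1 (ribonuclease) differed by -0.02, Klk1 (kallikrein) by 0.20, Spink1 (trypsin inhibitor) by 0.02 and Tff2 (trefoil factor) by 0.07. Of the granule proteins, Gp2, the main granule membrane glycoprotein, differed by 0.24 (medians 1538 and 1203 TPM), Sycn by 0.06, Zg16 by 0.04 and Cuzd1 by 0.17, and all 4 lay below 0 with median-of-ratios scaling.

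The ER folding machinery was higher in the Ptf1a-high cells. Of 27 ER chaperones and disulfide isomerases 26 lay above 0, 12 were higher by at least 0.5 and 3 by at least 1, and the median was 0.44. Within sets 25 lay above 0, 4 passed 0.5 and the median was 0.26, and with median-of-ratios scaling it was 0.21. Of the 3729 genes detected in at least 54 cells, 3264 lay above 0, 356 passed 0.5 and 17 passed 1. Within sets 2900 of the 3729 lay above 0 and 167 passed 0.5. Without the 12 short-total cells of the low group the list median was 0.28. Pdia4 (chromosome 6, 47796141 to 47813512), a disulfide isomerase, had 2.54 to 32.3 TPM in the high cells (median 12.9) and 0 to 25.6 TPM in the low cells (median 4.64). Cells ranked 28 to 54 and 55 to 81 had medians of 10.8 and 7.22 TPM, in the order of Ptf1a, along which short-total cells also became more frequent. Its difference was 1.31 (0.69 within sets) and the high cell was higher in 85.9% of pairs (70.6% within sets).

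Creld2, whose promoter with the ER stress element is shown above, had 17.1 to 102.3 TPM in the high cells (median 59.1) and 6.05 to 66.4 TPM in the low cells (median 23.6). The difference was 1.09, and 0.35 within sets. Hspa5 had 57.5 to 279 TPM (median 121) and 24.6 to 170 TPM (median 67.1), a difference of 0.91 (0.44 within sets). For both genes the ranges overlapped, and the difference within sets was the smaller one for both. Dnajb9, a cochaperone of Hspa5, differed by 1.02 (0.65 within sets), Hsp90b1, the ER form of Hsp90, by 0.94 (0.57) and Manf, an ER stress-induced secreted factor, by 0.78 (0.39). Erp27, a pancreatic ER protein and the most abundant member, had medians of 247 and 252 TPM and a difference of 0.05, and Dnajc10, a reductase, was the only member below 0 (-0.06).

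Genes that carry nascent chains into the ER and glycosylate them showed the same direction at smaller size. Of 30, 28 lay above 0, 7 passed 0.5, none lay below -0.5 and the median was 0.34 (0.20 within sets, 0.10 with median-of-ratios scaling, 0.24 without the short-total cells). Over all genes 80.8% lay above 0 and 5.58% passed 0.5. Within sets 1 of the 30 passed 0.5, near the share of all genes. Rpn1, a subunit of the oligosaccharyltransferase, had 5.42 to 19.4 TPM in the high cells (median 9.12) and 1.45 to 11.1 TPM in the low cells (median 4.46). Its difference was 0.80 (0.49 within sets), and the high cell was higher in 87.8% of pairs. Srp54a of the signal recognition particle differed by 0.66 and Sec61a1, the channel subunit, by 0.56 (0.51 within sets), while Sec61g, a small subunit of the same channel, differed by -0.27 and Srp9 by -0.01.

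Of 18 genes of the unfolded protein and integrated stress responses 15 lay above 0, a share near that of all genes, 5 passed 0.5 (4 within sets) and 2 passed 1. Over all genes 5.58% passed 0.5 (2.73% within sets) and 0.277% passed 1. The list median was 0.30 (0.27 within sets, 0.13 with median-of-ratios scaling, 0.25 without the short-total cells). Chac1, a glutathione-degrading enzyme induced by Atf4, had 2.49 to 110 TPM in the high cells (median 14.1) and 0.48 to 28.6 TPM in the low cells (median 5.04). Its difference was 1.38 (0.99 within sets). The cells ranked 28 to 54 and 55 to 81 had medians of 15.7 and 14.5 TPM, above that of the high group, while the mean log2 levels ran 3.96, 3.75, 3.53 and 2.58 from the highest to the lowest rank group. Syvn1, a ubiquitin ligase of ER-associated degradation, differed by 1.11 (0.62), Herpud1, which works with it, by 0.84 (0.72), Ddit3 (Chop) by 0.80 (0.84) and Atf4, the factor upstream of both Chac1 and Ddit3, by 0.64 (0.47). Ppp1r15a, which reverses the translation block, and Nupr1, a stress protein and the most abundant member, lay at -0.18 in both cases.

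Amino acid enzymes and transporters followed the same pattern. All 24 compared lay above 0, also within sets, 6 passed 0.5 and the median was 0.43 (0.30 within sets, 0.22 with median-of-ratios scaling, 0.27 without the short-total cells). Of all genes, 80.8% lay above 0 and 5.58% passed 0.5 in the ranking of all cells. For the 3729 genes detected in at least 54 cells, a nearer background, 3264 lay above 0 and 356 passed 0.5. Within sets 1 of the 24 passed 0.5, near the share of all genes (2.73%). Of the 3729 genes detected in at least 54 cells, 167 did so. Cbs, which makes cystathionine from homocysteine and serine, had 17.7 to 57.3 TPM (median 29.9) in the high cells and 6.04 to 38.6 TPM (median 16.8) in the low cells. The difference was 0.68 (0.50 within sets). Asns (asparagine synthetase) had medians of 66.9 and 43.2 TPM and differed by 0.51, Shmt2 (mitochondrial serine hydroxymethyltransferase) by 0.57 and Pycr1 (proline synthesis) by 0.57. The least were Slc7a5 and Psph, a transporter and a serine synthesis enzyme, at 0.19 and 0.21.

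**Figure D4:**
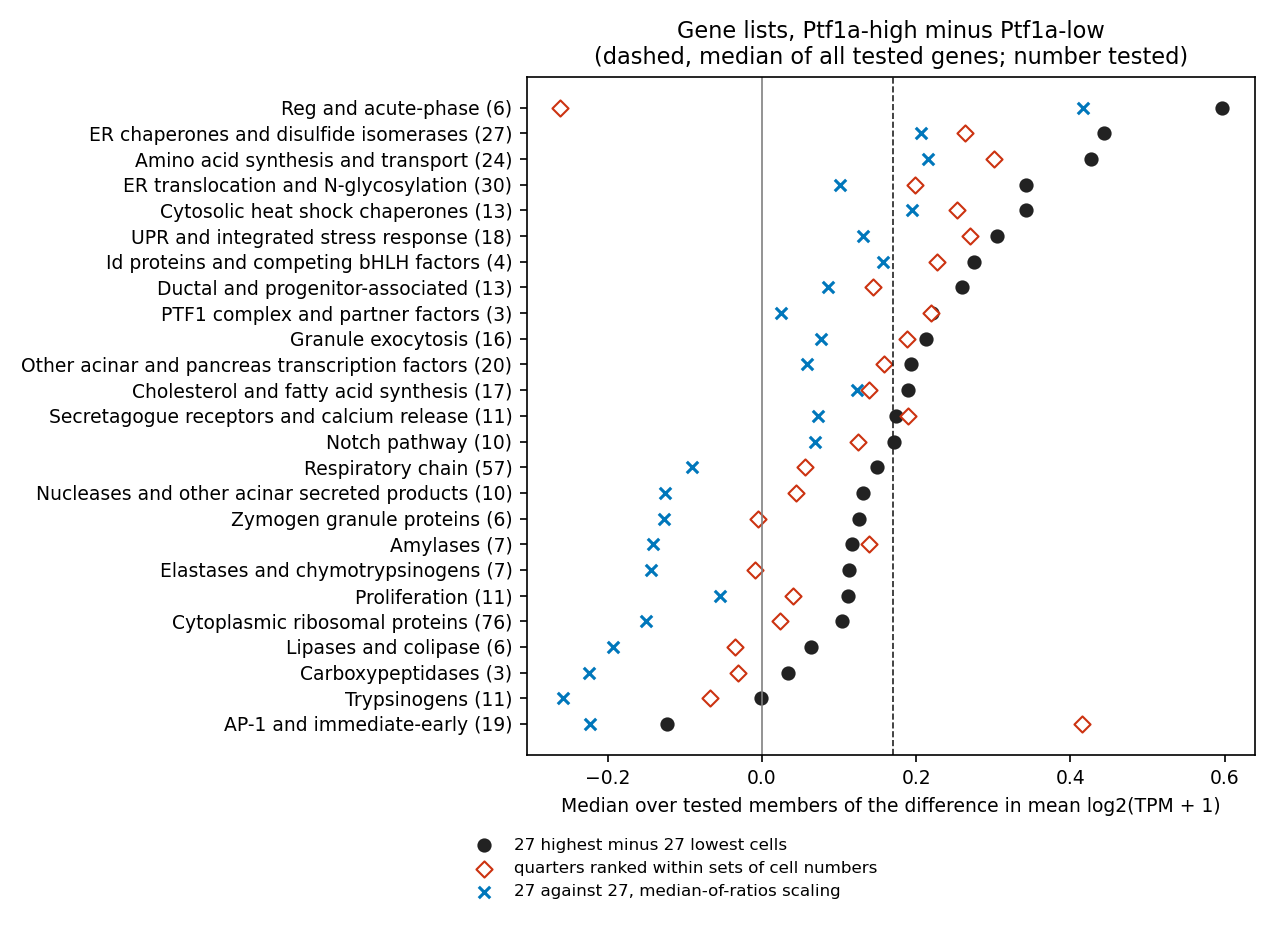
Median over the tested members of each gene list (rows, number tested in brackets) of the difference in mean log2(TPM + 1) (horizontal axis) for the 27 highest minus 27 lowest cells (black points), the ranking within sets (open diamonds) and median-of-ratios scaling (crosses). The dashed line at 0.17 is the median of all tested genes, and within sets the Reg and AP-1 lists change sign, as do 4 enzyme and granule lists at values near 0.

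Lists on regulated secretion and signalling stayed near the background. For 16 exocytosis genes the median was 0.21 with none past 0.5, led by Sytl1 (0.46), a synaptotagmin-like protein, and Rab3d (0.43), a zymogen granule GTPase. For 11 secretagogue receptor and calcium genes it was 0.17. Atp2a2, the ER calcium pump, differed by 0.54 (0.46 within sets) and Cckar, the cholecystokinin receptor, by 0.49, with medians of 33.3 and 26.4 TPM. The 10 Notch pathway genes had a median of 0.17 and the 4 Id and competing bHLH genes 0.28, led by Rfng (0.43), a Notch glycosyltransferase, and Id2 (0.45), an inhibitor of E proteins. In the 13 ductal and progenitor-associated genes the median was 0.26 with none past 0.5. Krt19, a ductal keratin, differed by 0.32. The 17 cholesterol and fatty acid genes had a median of 0.19, with Srebf1, their regulator, at 0.72 (0.35 within sets) and Fdps, of the isoprenoid pathway, at 0.57.

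The large housekeeping lists lay below the median of all genes. The 76 cytoplasmic ribosomal proteins had a median of 0.10 (-0.15 with median-of-ratios scaling) and none passed 0.5 in either direction. The 57 respiratory chain genes had a median of 0.15 (-0.09 with that scaling), with Ndufv1 of complex I at 0.58 and Atp5a1 of the ATP synthase at 0.56 as the 2 past 0.5. Of 11 proliferation genes 7 lay above 0 and the median was 0.11. Stmn1, a microtubule regulator, was lower by 0.5 or more (-0.54), with medians of 0 and 0.77 TPM and its maximum of 107.55 TPM in the low group.

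Of the lists in the plot of list medians, 6 changed sign between the rankings. For the elastases and chymotrypsinogens, carboxypeptidases, lipases and granule proteins the values within sets were -0.01, -0.03, -0.04 and -0.01, close to 0. The Reg and AP-1 lists moved further. Of 6 Reg and acute-phase genes, which encode secreted lectin-like proteins induced by injury, 4 were higher by at least 0.5 and the median was 0.60, but within sets it was -0.26 and 2 of 6 lay above 0. Reg3b had 0 to 913 TPM in the high cells (median 37.3) and 0 to 286 TPM in the low cells (median 14.01). Its difference of 1.12 was 0.06 within sets. Reg1, by far the most abundant member, had medians of 13331 and 12642 TPM, a difference of -0.14, and -0.51 within sets.

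Of 19 AP-1 and immediate-early genes, which are induced within minutes of stimulation or tissue dissociation, 14 lay below 0, 2 (Atf3 and Fosb) were lower by at least 0.5 and the median was -0.12. Within sets it was 0.42 with 16 above 0 and 8 past 0.5. For the cells of the main groups the sets were opposed, with medians of 0.45 in cells 1 to 48 and -0.60 in cells 49 to 91. Fos had 1.5 to 296 TPM in the high cells (median 17.6) and 0 to 265 TPM in the low cells (median 31.8). It differed by 0.32 in all, by 2.60 in cells 1 to 48 and by -0.32 in cells 49 to 91. Atf3, a stress-induced factor, differed by -0.94 (0.06 within sets) and was detected in 9 high and 18 low cells. The 13 cytosolic heat shock chaperones had a median of 0.34 (0.25 within sets). Hspa1a, the inducible Hsp70, had medians of 5.10 and 0 TPM and differed by 1.38 (0.48 within sets).

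**Figure D5:**
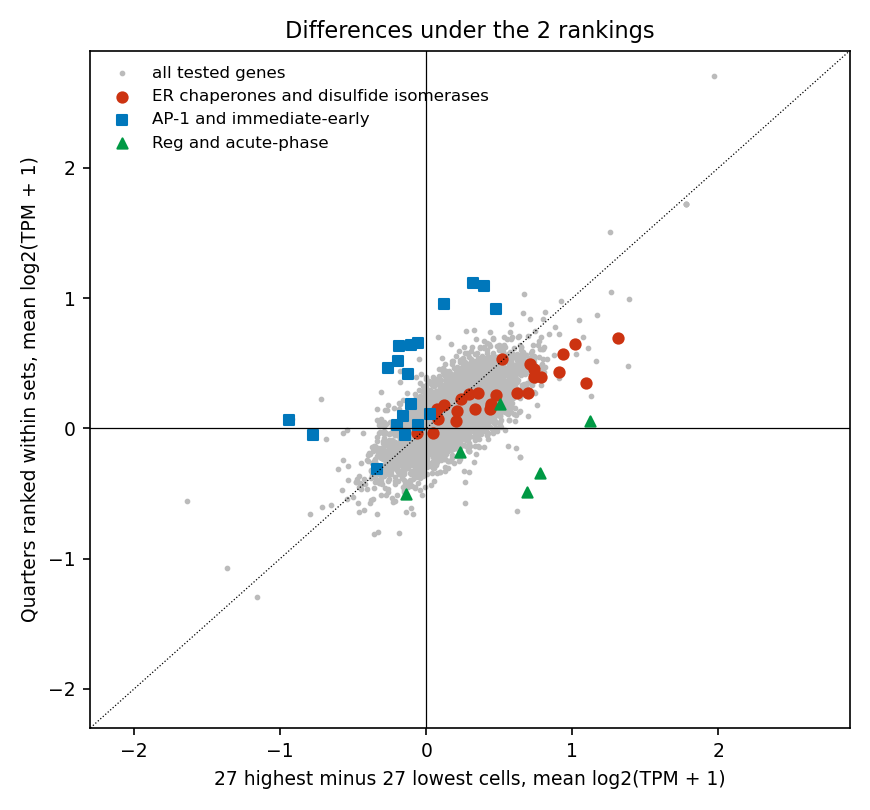
Difference in mean log2(TPM + 1) under the ranking of all cells (horizontal axis) and within sets (vertical axis) for all tested genes (grey) and 3 lists. ER chaperones lie mostly in the upper right, AP-1 and immediate-early genes mostly above the diagonal and Reg genes below it.

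Of the 20 genes higher by at least 1, all kept their sign within sets and 7 passed 1 there. Fgf21 was the only described gene among these 7. Of the 20, 10 were small RNAs, predicted genes and pseudogenes, among them 4 copies of Rnu3b with identical values, and are only counted. Besides Chac1, Hspa1a, Pdia4, Syvn1, Creld2, Dnajb9 and Reg3b the described genes were Fgf21, Depp1 and Cdkn1a. Fgf21, a secreted hormone that acinar cells release, had 0 to 115 TPM in the high cells (median 11.6) and 0 to 30.9 TPM in the low cells (median 3.78). Its difference was 1.26 (1.504 within sets), while the cells ranked 28 to 54 and 55 to 81 differed by -0.03. Cdkn1a (p21), a cell cycle inhibitor, differed by 1.07 (0.70 within sets) and Depp1, detected in 29 cells, by 1.16 (0.52).

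On the lower side the 3 genes past 1 were predicted genes. Among the 3729 genes detected in at least 54 cells, the named ones with the most negative differences included the metallothioneins Mt2 and Mt1, which bind zinc and copper. Mt2 had medians of 51.01 and 118 TPM and differed by -0.72, but by 0.22 within sets, by 2.46 in cells 1 to 48 and by -2.88 in cells 49 to 91. Mt1 differed by -0.54 and by 1.06 and -1.43 in those sets. The sign of both thus depended on the set. Plod3, a collagen-modifying enzyme, differed by -0.54 (-0.55 within sets), Smim6 by -0.48 (-0.42), Cox20, an assembly factor of cytochrome oxidase, by -0.46 (-0.45), Dpy30, a histone methyltransferase subunit, by -0.45 (-0.42) and Cald1, an actin-binding protein, by -0.45 (-0.46).

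The genes whose levels ran most like Ptf1a over all cells, by Spearman correlation of TPM among the 3729 genes, were Arcn1 (0.53), Rpn1 (0.53), Pdia4 (0.51), Cbs (0.50), Cope (0.49), Manf (0.48), Atp5a1 (0.48), Nars (0.48), Asns (0.47) and Fam174b (0.47). The median over all tested genes was 0.11. Arcn1 had 4.72 to 13.1 TPM in the high cells (median 10.2) and 1.43 to 9.89 TPM in the low cells (median 6.33). Its difference of 0.64 was the same within sets. Cope is another COPI subunit and Nars an asparaginyl-tRNA synthetase. Over the 87 full-total cells the correlations of Arcn1, Rpn1 and Pdia4 were 0.46, 0.41 and 0.38. Over the 9 alternatives run for correlations (other scalings, subsets of cells and residuals) Arcn1 ran from 0.30 to 0.53 and Rpn1 from 0.20 to 0.52. Pdia4 ran from 0.0078 to 0.51, so its correlation was not kept in all of them. Between the cells ranked 28 to 54 and 55 to 81, which the groups did not use, all 10 differed in the same direction, by 0.31 for Arcn1, 0.39 for Rpn1 and 0.58 for Pdia4. These cells belong to the ranking that the correlation used, so the shared direction of the 10 is no separate support. The median of this difference over the 3729 genes was 0.16, and Atp5a1 lay below it at 0.14. The 2 middle groups also held 2 and 7 short-total cells. The lowest named correlations were those of Dpy30 (-0.26), Cald1 (-0.24) and Pam (-0.23), a peptide-amidating enzyme.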

How the data were processed

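Each sample was 1 cell, and all cells formed 1 group. The authors deposited TPM values for 45195 gene rows, of which 44548 matched a symbol, and per the submitters' processing notes STAR 2.4.2a, RSEM 1.2.21, edgeR and mm10 were used in roles not stated. The unit was taken from the values. TPM keep no read depth, which is unknown, and no doublet caller was run. RSEM divides reads among near-identical copies, so such families are uncertain. The members, gene lists and sets of cell numbers were chosen with earlier results of these data known.

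Differences are of mean log2(TPM + 1), without a test, over genes at 1 TPM or more in at least 11 cells (10%). Median-of-ratios scaling used 1226 genes with a nonzero value in every cell. Intervals are exact binomial (95%), and the floor is 3 cells. Python 3.11.15, pandas 2.3.3, numpy 2.4.6 and scipy 1.17.1 were used, and the functions were tested on simulated data. Gene spans are given on GRCm38. The start of the span given for Rbpjl is not the start its promoter window was cut around.

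Named were all partner factors and detected transcription factors, up to 4 enzymes of highest mean a class, and per other list the highest mean and the 2 largest differences each way. Among genes in at least 54 cells the 12 largest differences each way and the 10 highest and 5 lowest correlations were also named, with predicted genes, pseudogenes and small RNAs only counted. Some genes that the rule names are not reported here. Genes outside this rule were chosen after their values were seen. Alternatives changed the pseudocount, filter, scaling, ranking, group size and cells. The fold of 1 was the planned size. The ranking within sets with scaling, and the comparison of cells ranked 28 to 54 with 55 to 81, were added after the data were seen.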

Additional observations from a re-analysis of the deposited data

How the results depend on the processing

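Values stand against 20 genes higher and 3 lower by at least 1 (403 and 20 by at least 0.5) and a median of all genes of 0.17. The limits for calling a value changed were set after these values were seen (a count by over 1.5 times, a change of sign for the 9 lists led with, a correlation by 0.1), and the rule on signs was narrowed to those lists once the outcome was known. The other 17 lists are given as a count: between 0 and 10 of them changed sign in each alternative, most in those with median-of-ratios scaling. The cause of these changes was not tested. Counts follow in the order higher by 1, lower by 1, higher by 0.5, lower by 0.5. A pseudocount of 0.1 gave 439, 27, 2642 and 187, a median of 0.37, 0.48 for the other transcription factors and 0.00175 for AP-1. A pseudocount of 10 gave 1, 0, 25 and 4, a median of 0.034 and 0.18 for amino acid genes. With genes detected in 1 cell the median was 0.068, and with genes in 50% of cells 1 and 7 were lower by 1 and 0.5. Rescaling without the enzymes gave 5 lower by 1, 172 higher and 32 lower by 0.5, and -0.092 for the enzymes. Median-of-ratios scaling gave 12, 6, 99 and 54, -0.18 for the enzymes and 0.10 for ER translocation. Ranking again after it gave 10 higher by 1, 57 and 46 by 0.5, a median of 0.028, -0.099 for the enzymes and 0.17 for amino acid genes. Within sets there were 10 higher by 1, 197 and 31 by 0.5, AP-1 was 0.42, Reg -0.26 and Mt2 0.22. With 18 cells a group 32 were higher and 8 lower by 1 and 65 lower by 0.5, and with 36 cells 8 were higher by 1, 256 higher and 10 lower by 0.5.

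Full-total cells alone gave 1 lower by 1, 52 lower by 0.5 and Reg at -0.17. Cells 1 to 48 gave 61, 9, 830 and 159, AP-1 0.45, Reg -0.40, Mt2 2.46 and Mt1 1.06. Cells 49 to 91 gave 32 lower by 1, 268 lower by 0.5, partner factors -0.15, enzymes -0.0013, amino acid genes 0.18 and Reg -0.055. Medians in place of means gave 42, 11, 709 and 56. Residuals on genes detected gave 9, 7, 58 and 53 and a median of 0.035. Ranking within sets with median-of-ratios scaling gave 6 higher by 1, 76 and 65 by 0.5, enzymes -0.14, ER chaperones 0.12, ER translocation 0.053, amino acid genes 0.16, AP-1 0.36, Reg -0.39, Reg3b -0.071 and Mt2 0.10. Cells ranked 28 to 54 against 55 to 81 gave 1, 0, 157 and 13, amino acid genes 0.10, AP-1 0.35, Fgf21 -0.028, Mt2 0.087 and Mt1 0.17. Bhlha15 (0.28 to 0.78), Pdia4 (0.55 to 1.58), Rpn1 (0.35 to 0.93) and the amino acid genes (0.10 to 0.52) stayed above 0 in all 19 alternatives run for them. The difference in median enzyme share ran from -1.05 to 1.11 percentage points, above 0 in 4 of 9 alternatives. Leaving out cells 31, 40 and 96 changed none of these values past the limits. The short-total cells alone hold no Ptf1a-high cell and gave correlations only. No paired analysis was possible because the cells carry no replicate numbers shared between groups.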
